A study of Homo sapiens with 2 samples.

Results

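RNA editing was measured on the transcripts of 10 human genes of the structural maintenance of chromosomes (SMC) complexes: SMC1A, SMC3, RAD21, STAG1 and STAG2 of cohesin, SMC2, SMC4 and NCAPG of condensin, and SMC5 and SMC6 of the SMC5/6 complex. A gene entered through the locus of the deposited isoform models whose exons overlapped it most on the same strand in GENCODE 44 (hg38), and all listed edit sites of that locus were taken. Each gene matched 1 locus, so the set is 10 of the 12178 loci with a listed site, of which 10081 received a symbol. The set holds 144 of the sites listed in the RBFOX2 library and 94 of those in the enzyme-only library.

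The cells were HEK293T, a human embryonic kidney line, which the cell line label spells HEK293XT and whose tissue label is kidney. In INSCRIBE, the method of the study, methanol-fixed cells receive APOBEC1, a cytidine deaminase, joined to a nanobody that recognises rabbit IgG. In the RBFOX2 library an anti-RBFOX2 antibody held the fusion near RBFOX2, a splicing regulator that binds UGCAUG, and cytosines close to it could be converted to uracil. In the enzyme-only library the fusion was added without that antibody. Both libraries were long-read PacBio libraries of unmodified cells with no other treatment named, and there was 1 library per group, so no difference below has a replicate check and every comparison is between 2 libraries, not between conditions. Of 6 genes used as markers of the line, 5 were listed in at least 1 library, while 0 of 7 markers of mature kidney cells were. KRT18 (417 and 411 reads) and NEFM (281 and 263 reads) were listed in both libraries. VIM was listed in the RBFOX2 library alone (1367 reads), and KRT8 and PAX2 in the enzyme-only library alone (23 and 3 reads). A gene is listed only where it has an edit site, so an unlisted gene may still be expressed.

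Cohesin is a ring of SMC1A, SMC3 and RAD21 with either STAG1 or STAG2, which holds sister chromatids together and folds the genome into loops. Condensin, built on SMC2 and SMC4, compacts mitotic chromosomes, with NCAPG as a HEAT-repeat subunit of its condensin I form. The SMC5/6 complex acts in DNA repair and replication. All of these complexes are present in dividing cells, and RBFOX2 is known for regulating exon choice next to its motif and also occupies 3′ untranslated regions (3′UTRs).

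The sequences around the sites that carry the results are given first, read from hg38 on the strand of the transcript, 5′ to 3′. Capitals mark the edited cytosines and, where present, the motif. The SMC1A window lies in the 3′UTR at chrX:53378385-53378414 and runs from a UGCAUG to the edited cytosine nearest to it. The STAG1 windows, at chr3:136338091-136338111 and chr3:136337888-136337917, hold the 3′UTR site nearest to a GCAUG and the STAG1 site with the most converted reads. The SMC2 window, at chr9:104139772-104139795, holds overlapping UGCAUG copies in the 3′UTR with an RBFOX2 site beside them.
SMC1A, 3′UTR: UGCAUGuuacuuaauguagcucaauccauC
STAG1, 3′UTR, site next to GCAUG: cagugaCagaagaggaGCAUG
STAG1, 3′UTR, site with most converted reads: uuaugaaaacucaaCauugaguaaaaaaaa
SMC2, 3′UTR: aaagCuauuaUGCAUGCAUGgagc

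A site is a cytosine listed as converted, and the reads given with it are those of its whole gene, 1 value per gene and library. No listed site had a converted share of 0.002 or less, so a gene of 500 reads or more shows no site with 1 converted read. The minimum was the same in both libraries for each of the 9 genes listed in both. Sites listed in both libraries, 11 in this set, were kept apart from the comparisons. This left 133 RBFOX2 sites and 83 enzyme-only sites, on 5020 and 3913 reads. The RBFOX2 numbers include 6 sites and 701 reads of SMC1A. That gene was not listed in the enzyme-only library, so its reads are missing from the 3913 and the 2 read sums cover different genes. In bulk libraries such as these, fewer cells with a transcript and fewer copies per cell cannot be told apart. The 95% intervals given are exact (Clopper-Pearson). They take in counting error alone, since there is 1 library per group. They also treat sites and reads as independent, although neighbouring sites may lie on the same molecule. PCR reads that carry no molecular identifiers are not independent molecules either.

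The set had more sites in the RBFOX2 library. The summed log2 ratio, scaled by the totals of unshared sites (109357 and 91111), was 0.42, with an interval from 0.01 to 0.83. SMC1A was listed in the RBFOX2 library alone, and without it the ratio was 0.35 with an interval from -0.06 to 0.77, which includes 0. Also without SMC1A but scaled by the reads of the genes, the ratio was 0.47 with an interval from 0.06 to 0.89, so whether 0 is included depends on the scaling. The log2 ratios of single genes ran from -0.61 for NCAPG to 2.54 for STAG1. Of the 4 genes with at least 20 sites, STAG2, SMC2, NCAPG and SMC6, none passed 2-fold in either direction, where 16.8% of the 3604 such loci were past 2-fold higher and 14.6% past 2-fold lower. Past 2-fold with an interval that excludes 0, the shares of these loci were 13.7% higher and 12.8% lower. The median log2 ratio of the 4 genes was -0.10 and that of the 3604 loci 0.08. With the minimum lowered to 10 sites, 7 genes could be read and 1 of them, STAG1, was past 2-fold higher with an interval above 0, while none was past 2-fold lower. Of all 5594 such loci, 12.8% were higher and 11.9% lower by that rule, so 1 of 7 is close to the background.

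**Figure D1:**
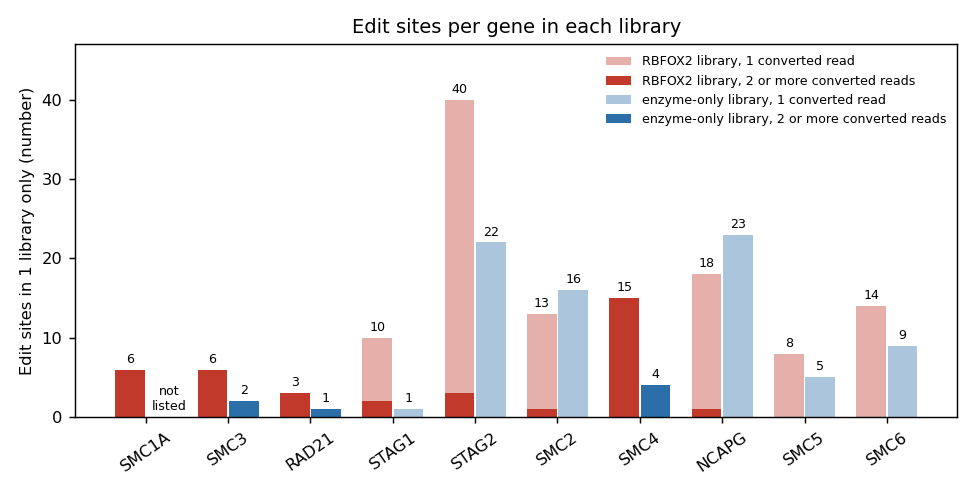
Bars show, for each gene on the x axis, the number of edit sites listed in 1 library only (y axis), red for the RBFOX2 library and blue for the enzyme-only library, with the dark part for sites with 2 or more converted reads. STAG2 had the most RBFOX2 sites, 40, while SMC2 and NCAPG had more enzyme-only sites, and SMC1A was not listed in the enzyme-only library.

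**Figure D2:**
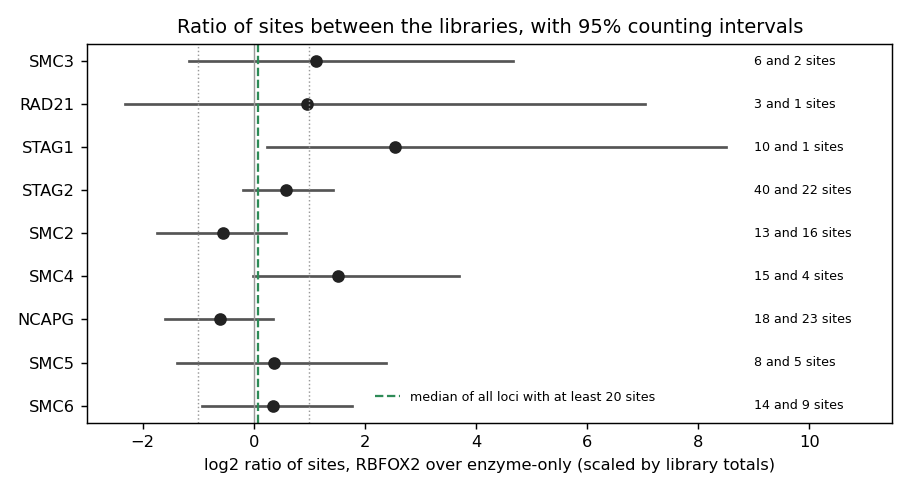
Points are log2 ratios of sites, RBFOX2 over enzyme-only, scaled by library totals, and lines are 95% counting intervals. Dotted lines mark 2-fold and the dashed line the median of all loci with at least 20 sites, 0.08. The interval of STAG1 lies above 0, while those of the other 8 genes include 0.

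The ring subunits of cohesin were read more than 500 times in each library that lists them, so their sites have at least 2 converted reads. SMC1A, which forms one arm of the ring, had 701 reads and 6 sites in the RBFOX2 library. Because it was not listed in the enzyme-only library, its reads there are unknown and no ratio is given. All 6 sites lay in the 3′UTR, from 522 to 1878 nt after the stop codon, each after an A or a U. The last of them had 3 converted reads and the other 5 had 2 each. Distances to the nearest UGCAUG in the spliced transcript were 161, 102, 100, 24, 62 and 184 nt in 5′ to 3′ order, so all 6 sites were within 200 nt of the motif. Of the 456 3′UTR cytosines inside the isoform models, 46.7% were within 200 nt of a UGCAUG and 9.21% within 50 nt. The 5 sites farthest from the stop codon fell in 325 nt that hold one UGCAUG, and 9.36% of 49210 3′UTR tiles of that length, from the reference transcripts of all listed genes, held one. These 325 nt were delimited by the sites themselves, so the share of tiles is a description.

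SMC3, the other arm of the ring, had 6 RBFOX2 sites on 800 reads and 2 enzyme-only sites on 685 reads. Its log2 ratio was 1.12 with an interval from -1.16 to 4.66. The interval spans both directions. The RBFOX2 sites were 3 coding and 3 in the 3′UTR, 18 to 249 nt after the stop codon, and each had 2 converted reads. The enzyme-only library had a coding site and a 3′UTR site at 282 nt, the latter with 3 converted reads. None lay within 200 nt of UGCAUG.

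RAD21, the kleisin that closes the ring, had 3 RBFOX2 sites on 666 reads and 1 enzyme-only site on 558 reads. The RBFOX2 sites were all in the 3′UTR, at 581, 849 and 1114 nt after the stop codon, with 3, 2 and 2 converted reads. The enzyme-only site was coding. The 3′UTR holds one UGCAUG, at 280 nt after the stop, and the nearest site was 296 nt beyond it. The log2 ratio was 0.96 with an interval from -2.32 to 7.04. The RAD21 locus also overlaps MIR3610.

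STAG1 and STAG2, the alternative HEAT-repeat subunits of cohesin, differed in how their sites were spread. STAG1 had 10 RBFOX2 sites on 225 reads against 1 enzyme-only site on 173 reads, a log2 ratio of 2.54 with an interval from 0.25 to 8.50. Of the 10, 9 lay in the 3′UTR within 415 nt, from 149 to 563 nt after the stop codon, and the last was coding in an alternative transcript alone. The site printed above with the most converted reads had 3 of 225 (1.33%), the highest share of any unshared site in the set. Another had 2 and the remaining 8 had 1 each, so most of the STAG1 surplus rests on single converted reads. The enzyme-only site was in the 3′UTR too, but 1454 nt after the stop, and that library had no site in the 415 nt.

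The STAG1 3′UTR has no UGCAUG. It has one GCAUG, 159 nt after the stop, with sites 10 and 44 nt from it and 6 of the 9 within 200 nt. GCAUG was in 31.7% of 37553 3′UTR tiles of 415 nt and UGCAUG in 11.8%. The stretch has 62 cytosines, of which 9 (14.5%) were listed. It was delimited by the sites themselves, so this density is a description. The STAG1 locus also overlaps the pseudogene DNAJC8P2.

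STAG2 had the most sites, 40 on 403 reads in the RBFOX2 library and 22 on 372 reads in the enzyme-only library. The log2 ratio was 0.58, with an interval from -0.19 to 1.42. Sites were spread along the coding sequence in both libraries, 31 against 18 on 642 coding cytosines. The 3′UTR sites, 9 against 4, all fell in its first 256 nt. Of the 42 isoform models that end in this 3′UTR, 40 end 285 to 286 nt after the stop codon and 2 at 1900 nt, so few models reach farther. Of the 40 RBFOX2 sites 3 had 2 converted reads, and of the 22 enzyme-only sites none. No unshared STAG2 site was within 50 nt of UGCAUG. Around one coding GCAUG, at chrX:124086716-124086770 in exon 30 of 35, both libraries had sites: the enzyme-only site is the first capital C of the window below, 27 nt before the pentamer, and the RBFOX2 sites are the last capitals, 10 and 12 nt after it.
STAG2, coding: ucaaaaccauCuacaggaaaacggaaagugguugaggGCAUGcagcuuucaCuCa

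**Figure D3:**
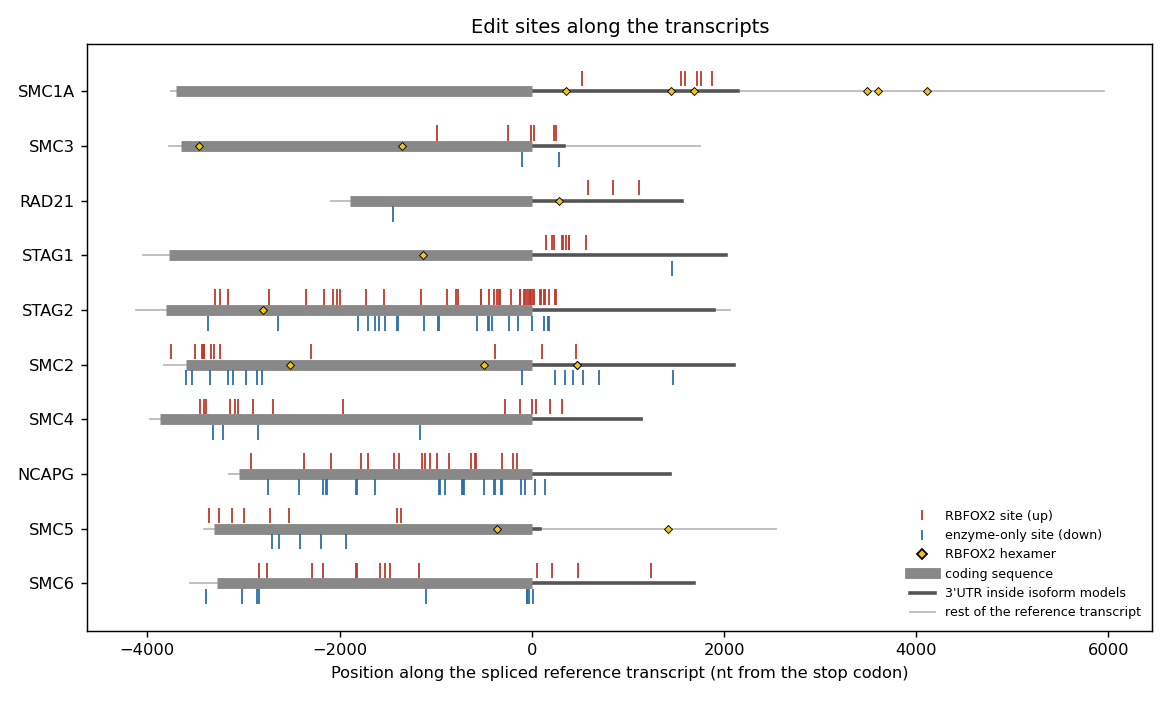
Each row is the spliced reference transcript of a gene with positions in nt from the stop codon (x axis), a thick bar for coding sequence, a dark line for the 3′UTR inside the isoform models, and ticks for edit sites, RBFOX2 up in red and enzyme-only down in blue. Diamonds are UGCAUG copies. The RBFOX2 sites of SMC1A, RAD21 and STAG1 lie in the 3′UTR, while those of NCAPG are all coding.

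The condensin genes had ratios of both signs, each with an interval that includes 0. SMC4, an ATPase subunit of both condensins, had 15 RBFOX2 sites and 4 enzyme-only sites at nearly equal depth, 937 and 932 reads. The log2 ratio was 1.52 with an interval from -0.01 to 3.69, which just includes 0. Scaled by the reads of the gene it was 1.78, from 0.25 to 3.95. Every site had at least 2 converted reads, as the depth requires. The strongest RBFOX2 site had 4 converted reads of 937 (0.427%) and lay in exon 4 of 24 with 2 other RBFOX2 sites close before it, all 3 in capitals in the window at chr3:160402758-160402848.
SMC4, coding: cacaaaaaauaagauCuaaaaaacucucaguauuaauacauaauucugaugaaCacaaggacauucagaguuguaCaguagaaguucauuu
The RBFOX2 sites were 11 coding and 4 in the 3′UTR, one of those with 3 converted reads, and the 4 enzyme-only sites were all coding, one with 3 converted reads. The spliced SMC4 transcript has no UGCAUG, and its only GCAUG was 799 nt or more from every site.

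SMC2, the ATPase partner of SMC4, had 13 RBFOX2 sites on 375 reads and 16 enzyme-only sites on 331 reads, a log2 ratio of -0.55 with an interval from -1.74 to 0.59. Coding sequence held 10 RBFOX2 and 8 enzyme-only sites, and the 3′UTR 2 and 6. The overlapping UGCAUG copies printed above, 467 nt after the stop codon, had an RBFOX2 site 6 nt before them and an enzyme-only site 35 nt before them, each with 1 converted read. The motif neighbourhood was therefore marked in both libraries at the lowest count that can be listed.

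NCAPG had 18 RBFOX2 sites on 262 reads and 23 enzyme-only sites on 217 reads, so the library with fewer reads had more sites. The log2 ratio was -0.61 with an interval from -1.59 to 0.34. All 18 RBFOX2 sites were coding, and of the 23 enzyme-only sites 21 were coding and 2 in the 3′UTR. One RBFOX2 site, at codon 556, had 2 converted reads, and each other unshared NCAPG site had 1. The RBFOX2 sites at chr4:17837788 and chr4:17842354 were 32 and 34 nt from UGCAUG in the genome, but those copies are intronic, since the spliced transcript has none.

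SMC5 and SMC6, the ATPase pair of the SMC5/6 complex, had ratios whose intervals include 0. SMC5 had 8 RBFOX2 sites on 298 reads and 5 enzyme-only sites on 284 reads, with a log2 ratio of 0.36, from -1.38 to 2.37. Its isoform models reach only 85 nt of a reference 3′UTR of 2542 nt, and no 3′UTR site was listed. The locus also overlaps ENSG00000274421. SMC6 had 14 RBFOX2 sites on 353 reads and 9 enzyme-only sites on 361 reads, with a log2 ratio of 0.35, from -0.94 to 1.76. In its 3′UTR there were 4 RBFOX2 sites, 59 to 1240 nt after the stop, and 1 enzyme-only site, at 8 nt. Every unshared site of SMC5 and SMC6 had 1 converted read.

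The sites with the most converted reads in the set were in both libraries. In SMC2, chr9:104132055 in exon 22 of 25 was converted in 23 of 375 RBFOX2 reads (6.13%, 3.93 to 9.06) and 13 of 331 enzyme-only reads (3.93%, 2.11 to 6.62). In SMC6, chr2:17716880 in exon 14 of 28 was converted in 10 of 353 reads (2.83%, 1.37 to 5.15) and 9 of 361 (2.49%, 1.15 to 4.68). At both sites the intervals of the libraries overlap. Conversion would change the proteins by S1013F in SMC2 and R403W in SMC6, with residues counted from the start codon. The other 9 shared sites, 4 in STAG2, 4 in NCAPG and 1 in SMC3, had at most 2 converted reads in either library. Whether any shared site is a sequence variant of the line was not tested. The coding windows of both strong sites, at chr9:104132025-104132085 and chr2:17716850-17716905, are printed for their context.
SMC2, coding: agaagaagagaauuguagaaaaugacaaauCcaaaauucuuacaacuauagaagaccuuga
SMC6, coding: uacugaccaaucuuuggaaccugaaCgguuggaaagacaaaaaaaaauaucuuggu

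Across the set, the libraries could not be told apart by closeness to the motif at this number of sites. In the genome, 4 of 133 RBFOX2 sites lay within 50 nt of UGCAUG (3.01%, 0.825 to 7.52). For the enzyme-only library it was 1 of 83 (1.20%, 0.0305 to 6.53). From the exonic cytosines of the same genes 1.96% and 2.35% would be that close. Over all loci the shares were 3.95% and 2.32%. The 4 RBFOX2 sites were those of SMC1A and SMC2 printed above and the NCAPG pair next to intronic copies, so in spliced transcripts 1.52% and 1.22% remained. UGCAUG itself is common at this length: 7 of the 10 reference transcripts hold it, as do 73.6% of the 3449 reference transcripts between 3660 and 9710 nt.

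The sequence preference of the enzyme was plain in both libraries. APOBEC1 prefers a cytosine after A or U, and such cytosines made up 86.5% of RBFOX2 sites (79.5 to 91.8) and 79.5% of enzyme-only sites (69.2 to 87.6). The exonic cytosines of these A/U-rich genes give 55.3% and 56.6%. The ratio of observed to expected was 1.56 and 1.40, against 1.56 and 1.42 over all loci.

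More RBFOX2 sites were in the 3′UTR, 30.1% (22.4 to 38.6) against 18.1% (10.5 to 28.0), with overlapping intervals. Over all loci the shares were 41.6% and 35.6%. Coding sequence held 68.4% and 78.3% of the sites of the set and 49.5% and 54.2% of those of all loci. SMC1A and STAG1 gave 15 of the 40 RBFOX2 3′UTR sites, and without them the shares were 21.4% and 17.1%.

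The surplus was also read by depth. SMC3, RAD21 and SMC4 had at least 500 reads in both libraries, and together they had 24 RBFOX2 sites against 7, a ratio of 3.43 (1.43 to 9.42) where the read ratio was 1.10. At 1 minimum for both libraries, all 787 nuclear loci of that depth had 7722 against 3800 sites, a ratio of 2.03, which lies inside the interval of the 3 genes. The 6 genes under 500 reads had 103 against 76 sites, a ratio of 1.36 with a read ratio of 1.10. All 7287 loci under 500 reads had 95680 against 76968 sites, a ratio of 1.24 with a read ratio of 1.10. Scaled by library totals, the log2 ratio of the 6 genes was 0.18 (-0.27 to 0.62), an interval that includes 0, and that of these loci 0.05. In the 6 genes, 7 of 103 RBFOX2 sites (6.80%, 2.78 to 13.5) had 2 or more converted reads. For the enzyme-only library it was 0 of 76, for which the exact interval reaches up to 4.74% (3 counts of 76 would be 3.95%). Over all loci under 500 reads the shares were 7.25% and 4.39%, each inside the interval of the set.

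The RBFOX2 sites in the 3′UTR of SMC1A, but not those of STAG1, divided the isoform models that end in the 3′UTR. Of 40 SMC1A models 17 end 1771 to 2148 nt after the stop codon and hold 5 or 6 of the sites. Another 9 end at 404 to 413 nt, before the first site, and 14 have no end in the 3′UTR, so 23 models hold none. In STAG1, 9 models end 846 to 852 nt after the stop and 8 at 2011 to 2020 nt. All 17 hold the same 9 RBFOX2 sites, and the 8 long ones also hold the enzyme-only site. Reads are given per gene, so the share of reads that reach these positions is unknown and the printed percentages are of all reads of the gene.

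**Figure D4:**
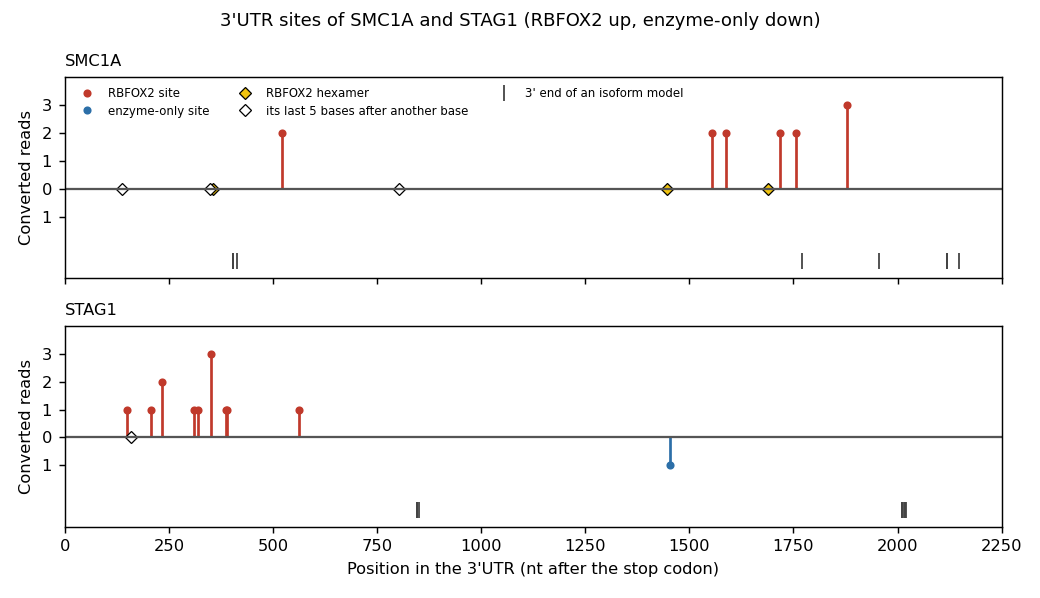
Stems are 3′UTR sites with their converted reads (y axis, RBFOX2 up, enzyme-only down) at their distance after the stop codon in nt (x axis). Yellow diamonds are UGCAUG, white ones GCAUG after another base, and grey ticks the 3′ ends of isoform models. The SMC1A sites lie between 522 and 1878 nt, beyond the short ends, and 9 STAG1 sites lie between 149 and 563 nt, before both groups of ends.

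A share of edited cytosines, modelled on the study's editsC, was computed for the 368 of 412 models that hold a site. A site of the gene was counted for every model whose exons cover it, without assigning reads to isoforms, so the value differs from a measure made on the reads of each isoform. The RBFOX2 median was 2.14% and the enzyme-only median 1.03%, and 269 models (73.1%) were higher with RBFOX2. SMC1A is not listed in the enzyme-only library, so its 17 models entered there as 0. All 17 are among the 269, although the reads of SMC1A in that library are unknown. Over all 108386 models with a site, the medians were 2.07% and 1.68%, with 56.7% higher. Loci listed in 1 library alone entered the other as 0 there too. STAG2 had the highest median, 7.49% against 4.19%, and was higher in 55 of 55 models. SMC4 was 1.92% against 0.533% and higher in 104 of 112. NCAPG went the other way, 3.64% against 4.72%, and was lower in 38 of 42. SMC2 was 1.03% against 2.30%, but its 39 models went both ways, with 15 lower and 11 higher. Models of 1 gene share exons and sites and are not independent, and SMC4 alone gives 112 of the 368. With the longest model of each gene by exonic cytosines, the medians over the 10 genes were 1.74% and 0.802%, the enzyme-only 0 of SMC1A included.

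**Figure D5:**
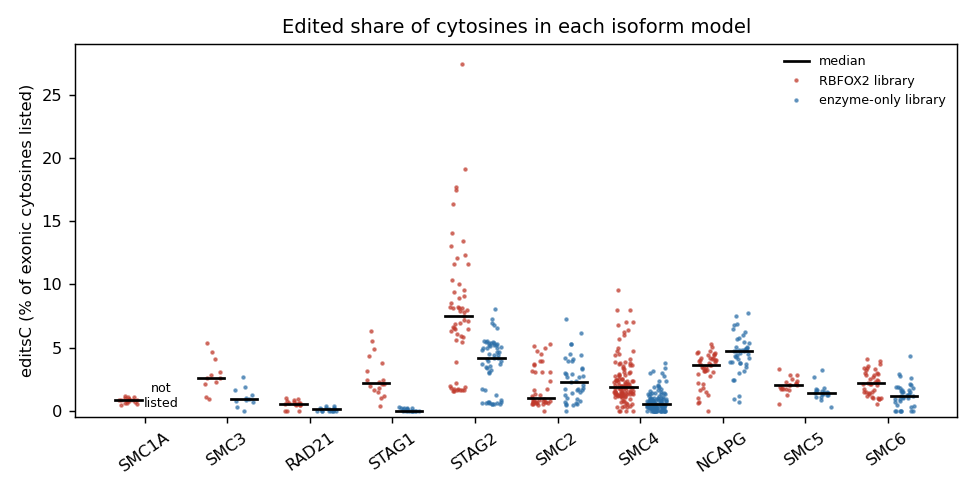
Each point is an isoform model with at least 1 site, its editsC in percent of exonic cytosines (y axis) by gene (x axis), red for RBFOX2 and blue for enzyme-only, with black bars for medians. The medians of STAG2 are 7.49% and 4.19%, and those of NCAPG 3.64% and 4.72%.

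Conversion of coding cytosines can change codons. Of 90 RBFOX2 sites in reference coding sequence 31 were synonymous, 46 changed an amino acid and 13 (14.4%, 7.92 to 23.4) made a stop codon. Of 65 enzyme-only sites the numbers were 27, 32 and 6 (9.23%, 3.46 to 19.0). Of all 5892 coding cytosines 12.6% would make a stop codon, and of the 3229 after A or U 13.5%. Both shares are inside both intervals. STAG2, which had the most coding RBFOX2 sites of the set, 31 of the 90, held 7 of the 13 stop sites, at codons 187, 216, 604, 1013, 1150, 1158 and 1242. SMC2 held 3, at codons 56, 63 and 434, and SMC4 (codon 324), NCAPG (967) and SMC6 (369) had 1 each. The enzyme-only stop sites were at codons 146 and 801 of STAG2, 264 of SMC2, 909 of NCAPG, and 370 and 458 of SMC5. Of the shared sites 3 would also make one, at codon 932 of STAG2 and codons 404 and 558 of NCAPG.

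Genes that load, release or accompany these complexes gave no common direction. Of 31 such genes 25 were listed, in 27 loci, and 15 loci had at least 20 sites. By the rule of 2-fold with an interval that excludes 0, 1 was higher and 1 lower, no larger a share than the 13.7% and 12.8% of all loci with that many sites. The median log2 ratio was -0.13. The lower one was CTCF, the zinc finger protein that halts cohesin on DNA, with 14 sites against 25 and a log2 ratio of -1.08 (-2.16 to -0.10). The higher one was SLF1, which recruits SMC5/6 to DNA damage, with 17 against 5 and a log2 ratio of 1.41 and a lower bound of 0.00459, barely above 0. Of 7 cohesin partner loci 0 were higher, of 4 condensin partner loci none were in either direction, and of 4 SMC5/6 partner loci 0 were lower.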

How the data were processed

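The genes, partner lists and tests were chosen with earlier results of these data known. The 2 libraries were grouped by their descriptions in the labels. In the study's methods, full-length PacBio reads were aligned to hg38 with pbmm2 and C-to-U edits were called with the authors' code. The methods name another library kit and isoform tool than the labels and identifiers of these tables, so the settings behind them are not given in the sources used here. For each site the deposited tables give a count of converted reads, a count of reads of its gene, their quotient as a fraction, and a confidence score that was not used. The deposited isoform models carry no expression values.

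Loci were assigned to GENCODE 44 genes with bedtools 2.31.1, and coding sequence took precedence over 3′UTR where annotations overlapped. All 225811 listed positions were cytosines of hg38. Reference transcripts were MANE Select. Shared sites were set aside. The study took out, as putative variants, edits seen in every replicate and sample, so the rule used here on 2 libraries removes more. Its removal of annotated variants was not repeated. The log2 ratio of sites used a pseudocount of 0.5 per gene and none for the summed set, and was scaled by library totals, with calls past 2-fold at 20 sites or more. UGCAUG and GCAUG were searched on the strand of the transcript, and GCAUG includes the copies within UGCAUG. Intervals came from scipy 1.17.1, and scripts were tested on simulated data. No p-value was computed. Named sites were, per gene, those with the most converted reads in each library (3 or more), those near UGCAUG in a gene with at least 2 of them in a library, stop-creating sites and shared sites with 5 or more converted reads. The alternatives without SMC1A, without SMC1A and STAG1, and with 10 sites were chosen after seeing the data, as were the SMC1A, STAG1, STAG2, SMC2 and SMC4 windows and the site counts by depth.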

Additional observations from a re-analysis of the deposited data

How the results depend on the processing

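No paired analysis was possible because there is 1 library per group, numbered 2 for RBFOX2 and 1 for enzyme-only. For the 9 genes listed in both libraries, the 36 log2 ratios under other scalings, pseudocounts, minimums and with shared sites kept all had the sign of the reported value. Much of this was fixed in advance. The common minimum left every count unchanged, so those values repeat the reported ones, and the other pseudocount used the same counts. Apart from STAG1, the reported intervals of these genes include 0. With shared sites kept, the summed log2 ratio was 0.38 with an interval from -0.00345 to 0.77. With at least 2 converted reads, which drops most sites of genes under 500 reads, 37 RBFOX2 and 7 enzyme-only sites remained, the shares after A or U and in the 3′UTR were 97.3% and 51.4% in the RBFOX2 library and 85.7% and 14.3% (0.361 to 57.9) in the enzyme-only library, and the enzyme-only share within 50 nt of UGCAUG was 0%. The shares near UGCAUG were 0.752% and 0% at 20 nt, and 12.8% and 19.3% at 200 nt, where the enzyme-only library was the higher. With GCAUG in place of UGCAUG they were 7.52% (3.66 to 13.4) and 4.82% (1.33 to 11.9). Counting a position as 3′UTR first, which takes in coding positions of transcripts with an early stop, gave 66.9% and 62.7%. Without SMC1A and STAG1 the RBFOX2 3′UTR share was 21.4%. In genes of at most 500 reads, 6.80% and 0% of sites had 2 or more converted reads. Single-gene loci gave 112 and 76 sites. Depth limits these results: most sites rest on 1 converted read, and reads per position are unknown.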

Other observations

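NSMCE4A, the kleisin subunit of SMC5/6, had 40 RBFOX2 sites on 483 reads and 45 enzyme-only sites on 423 reads, a log2 ratio of -0.43 (-1.09 to 0.21). Of these, 4 RBFOX2 sites and 0 enzyme-only sites were within 50 nt of UGCAUG, and 6 against 1 were in the 3′UTR. NSMCE2, the SUMO ligase of the same complex, had 2 sites against 9 on 246 and 213 reads, under the minimum of 20 sites, and its locus overlaps another gene. Both genes were chosen after their values were seen. Over all partner loci, 7 of 364 RBFOX2 sites (1.92%) and 3 of 323 enzyme-only sites (0.929%) were within 50 nt of UGCAUG. From their exonic cytosines 1.44% and 1.21% would be that close, and over all loci 3.95% and 2.32% were. NCAPH, a condensin partner, had 0 such RBFOX2 sites and 2 such enzyme-only sites.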
